A study of Mus musculus with 4 samples.

Results

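Carbonic anhydrases are zinc enzymes that convert carbon dioxide and water into bicarbonate and a proton. The 10 genes described here, Car2, Car3, Car4, Car5b, Car7, Car8, Car9, Car12, Car13 and Car14, were taken from the deposited table by symbol. All 10 were found among its 52125 rows, and the table holds 16 genes of the family in all. They were measured by RNA sequencing in the corpus of the stomach, its main acid-producing region, of wild type C57BL/6 mice aged 6 to 8 weeks. The HDT group is 2 mice taken 48 hr after a single injection into the peritoneum of 5 mg HDT per 20 g of body weight, and the vehicle group is 2 mice at the same time. HDT usually abbreviates high-dose tamoxifen, a drug that injures acid-secreting cells, but the labels hold only the abbreviation. The titles say vehicle where the protocol says untreated, so an injection of the controls is not certain. Each library is whole corpus tissue from 1 mouse, and no gene was altered in either group.

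In the acid-secreting parietal cell the enzyme supplies protons to the gastric proton pump and bicarbonate to an exchanger on the opposite, basolateral membrane. In surface mucous cells it supplies the bicarbonate that is secreted against luminal acid. Members differ in where they work: Car2, Car3, Car7 and Car13 encode cytosolic enzymes, Car5b a mitochondrial one, and Car4, Car9, Car12 and Car14 enzymes with an extracellular catalytic domain. Car8 encodes a related protein that lacks the enzyme activity.

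Relative to the typical gene, 3 carbonic anhydrase genes fell in HDT corpus and none of the 10 passed the limma test as higher. Car8 was at 0.282 times its vehicle level, Car5b at 0.724 times and Car9 at 0.820 times. Car2, by far the most abundant member, was at 2519 and 3030 CPM in the HDT libraries, against 2395 and 2269 CPM in the vehicle libraries, and did not pass the test. CPM, counts of reads scaled to a common library total, is here adjusted by TMM, a method that sets the typical gene equal between libraries. Of 10 members, 3 were lower and 0 higher at a limma adjusted p below 0.05, where 19.3% of the 18285 genes tested were lower and 18.4% higher, 37.7% in either direction. The 30% of members that were lower rest on few genes, and the median log2 fold change was -0.26 for the members and -0.002 for all genes tested. At an unadjusted limma p below 0.05, 1 member was higher and 3 were lower. For that threshold, here and below, the share of all genes was not computed, so such counts have no background beside them. edgeR's quasi-likelihood test on recovered reads called 0 members higher and 3 lower, where it called 18.4% of all genes higher and 19.2% lower. DESeq2 called 1 higher and 3 lower, where it called 14.4% of all genes higher and 15.8% lower.

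The direction of the modest changes depends on the scaling. The deposited values set the total reads of the libraries about equal, and on that scale the median of all genes lay at a log2 fold change of 0.526 instead of -0.002. There 5 members were called higher (Car2, Car9, Car12, Car13 and Car14) and 1 lower (Car8), where 62.8% of all genes were called higher and 5.46% lower. Car8 was thus the only member with the same called direction on both scales. Both HDT libraries lay outside the range of the vehicle libraries for 7 of 10 members in TMM-scaled CPM, 1 above and 6 below. That held for 70.8% of all tested genes, 35.3% above and 35.5% below, so the members' share stands at the background. All changes below are relative to the TMM median unless the deposited scale is named.

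**Figure D1:**
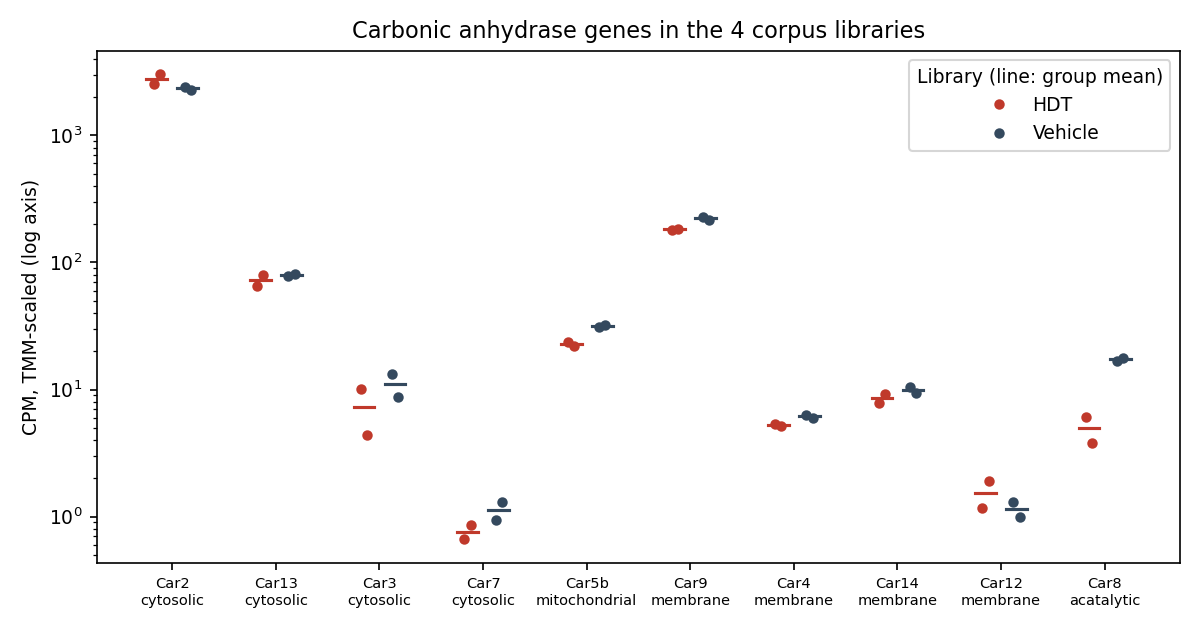
TMM-scaled CPM (log axis) of the 10 carbonic anhydrase genes in each library, HDT in red and vehicle in dark blue, with a line at each group mean, ordered by where the protein works. Car8 averaged 4.97 CPM in HDT and 17.2 CPM in vehicle, the widest ratio between groups among the 10, while the points of Car3, Car12 and Car13 overlap between groups.

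**Figure D2:**
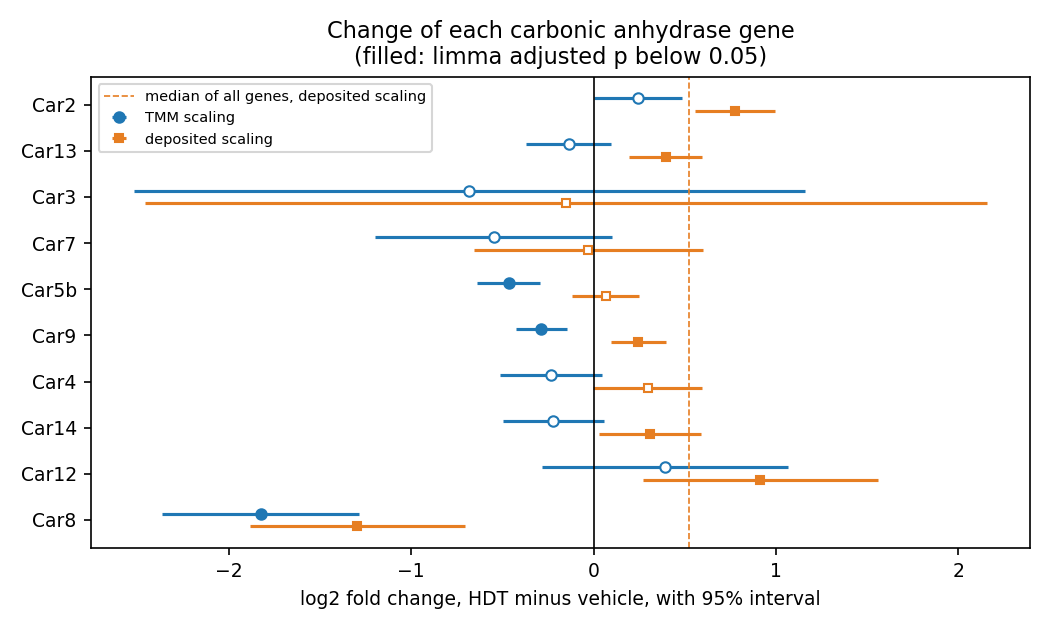
Log2 fold change of each member, HDT minus vehicle, with its 95% interval from limma, on the TMM scale (circles) and on the deposited scale (squares). Filled symbols passed an adjusted p of 0.05, and the dashed line marks the deposited-scale median of all genes, 0.526, with each square to the right of its circle.

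Depth was even, from 42175023 to 42674985 recovered reads in HDT and from 41536686 to 42104568 in vehicle. Chief cell markers, led by the pepsinogen genes Pga5 and Pgc, summed to 32110 to 45450 CPM in HDT and to 155600 to 188900 CPM in vehicle, with 5 of 8 tested lower (3 on the deposited scale) and Lipf at 0 in every library. Vehicle replicate 2 stood apart in digestive enzyme genes of the pancreas: the 10 acinar markers summed to 15.6 and 15.9 CPM in HDT, against 38.7 CPM in vehicle replicate 1 and 239.7 CPM in vehicle replicate 2. By limma 0 of 5 tested acinar markers were called, among them the most abundant, Cela1 and Ctrb1 (limma adjusted p = 0.0573 and 0.436). At an unadjusted p below 0.05, 2 were lower, edgeR called 0 and DESeq2 3, and limma called 5 lower without vehicle replicate 1 and 3 without vehicle replicate 2. Macrophage markers had 7 of 10 higher, led by the lipid receptor gene Trem2 and by Cd68. Smooth muscle markers had 0 of 8 called by limma (1 lower at an unadjusted p below 0.05 and by DESeq2, 0 by edgeR), with Acta2 and Myh11 at log2 fold changes of -0.27 and -0.10. They summed to 1843 and 2690 CPM in HDT, against 3058 and 2162 CPM in vehicle. The mice of each group thus differed widely and the groups overlap, so the lack of calls does not show an equal muscle content. Squamous forestomach markers had 1 of 9 higher (Ivl) and 1 lower (Sbsn) at summed levels of 5.62 and 6.00 CPM in HDT and 5.60 and 5.17 CPM in vehicle, and neural markers had 1 of 8 lower (Prph). Leaving out 1 mouse gave 1 to 3 higher and 0 to 2 lower squamous markers, and 0 to 3 lower neural markers. In whole tissue, fewer cells of a type and less RNA per cell cannot be told apart, and the part of these cell types in the changes below was not tested.

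For the promoters of the members, RefSeq sequences on GRCm38.p6, from 250 bases before to 50 bases after the transcript start, were matched for 6 of 10 members: Car4, Car5b, Car7, Car9, Car12 and Car14. They are shown because Car9 is a textbook target of the hypoxia-inducible factors. The letters searched, on both strands, were ACGTG, a form of the hypoxia response element core, TNAAGGTCA, the element of oestrogen-related receptors, and TATAAA, the TATA box. The variant GCGTG was not searched, so a promoter without ACGTG may still hold a form of the core. ACGTG was found in the promoters of 3 members (Car4, Car9 and Car14), and 19.6% of 32851 promoters of this length hold it. The receptor element was in 0 of the 6 members' promoters and in 1.3% of all, and the TATA letters were in 1 (Car4) and in 13.6% of all. The 3 promoters with ACGTG and that of Car5b, a called member without ACGTG, read as follows 5′ to 3′. Every match to the letters searched is in capitals.
Car9, chr4:43506776-43507075 (+ strand): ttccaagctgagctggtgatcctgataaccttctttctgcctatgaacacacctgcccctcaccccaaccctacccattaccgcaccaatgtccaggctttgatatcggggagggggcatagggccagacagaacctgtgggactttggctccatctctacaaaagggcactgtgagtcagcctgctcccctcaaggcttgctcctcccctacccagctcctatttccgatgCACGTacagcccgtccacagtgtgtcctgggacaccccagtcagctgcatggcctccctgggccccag
Car14, chr3:95904636-95904935 (- strand): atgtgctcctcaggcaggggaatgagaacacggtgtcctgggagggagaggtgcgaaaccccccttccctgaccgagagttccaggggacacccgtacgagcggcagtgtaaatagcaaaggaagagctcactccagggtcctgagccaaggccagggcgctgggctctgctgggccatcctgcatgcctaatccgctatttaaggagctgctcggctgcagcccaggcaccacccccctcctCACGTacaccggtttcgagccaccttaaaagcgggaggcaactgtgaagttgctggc
Car4, chr11:84957504-84957803 (+ strand): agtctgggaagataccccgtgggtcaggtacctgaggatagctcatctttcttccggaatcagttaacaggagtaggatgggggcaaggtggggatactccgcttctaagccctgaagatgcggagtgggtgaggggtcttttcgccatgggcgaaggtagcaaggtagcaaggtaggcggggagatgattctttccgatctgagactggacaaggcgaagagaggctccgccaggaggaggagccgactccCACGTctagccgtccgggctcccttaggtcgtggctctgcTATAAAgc
Car5b, chrX:164027961-164028260 (- strand): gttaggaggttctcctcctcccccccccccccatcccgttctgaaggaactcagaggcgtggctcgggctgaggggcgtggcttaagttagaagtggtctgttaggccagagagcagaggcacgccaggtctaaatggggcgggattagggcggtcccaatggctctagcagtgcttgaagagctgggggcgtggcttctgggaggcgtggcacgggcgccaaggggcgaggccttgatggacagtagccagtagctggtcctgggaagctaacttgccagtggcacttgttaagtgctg
In all 3 the ACGTG match lies on the opposite strand and so reads CACGT. In Car9 it begins 18 bases upstream of the transcript start, and in Car14 it begins 7 bases upstream. In Car4 it begins 2 bases downstream, with TATAAA 42 bases downstream. A match of letters is a description and not evidence of binding.

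Among the cytosolic enzymes, Car2 carried most of the family's reads. It encodes a fast, widely used form of the enzyme, found in parietal and surface mucous cells of the stomach. Its log2 fold change was 0.25 (SE 0.104, 95% interval 0.01 to 0.49, limma adjusted p = 0.101), and both HDT libraries lay above both vehicle libraries. DESeq2 called it higher at a log2 fold change of 0.25 (adjusted p = 0.0448), and limma did so without HDT replicate 1 (0.39, adjusted p = 0.00382). Without HDT replicate 2 it was 0.13 (limma adjusted p = 0.160), without vehicle replicate 1 0.28 (0.307) and without vehicle replicate 2 0.21 (0.469), none of them called. With no TMM factor, Car2 was at 3072 and 3583 CPM in HDT, against 2030 and 1856 CPM in vehicle, a log2 fold change of 0.78 that limma called (adjusted p = 7.03e-05).

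Most markers of the parietal cell fell. By limma 13 of 16 fell, 1 rose and the other 2 were not called, with a median log2 fold change of -1.52 (10 lower and 2 higher on the deposited scale). Their summed level was 3080 to 3575 CPM in HDT and 14740 to 16090 CPM in vehicle. The chloride-bicarbonate exchanger gene Slc26a7 and the nuclear receptor gene Esrrb led the list, with log2 fold changes of -3.66 and -3.31. The 1 marker that rose, the sodium-proton exchanger gene Slc9a4, had a log2 fold change of 0.26, next to 0.25 for Car2, and was not called higher without vehicle replicate 1 or without vehicle replicate 2. Within a library, ratios of reads need no scaling. There were 4.47 and 6.13 Car2 reads per read of the proton pump subunit gene Atp4b in HDT, against 0.507 and 0.456 in vehicle. Per read of Slc4a2, the basolateral bicarbonate exchanger gene of parietal cells, there were 14.7 and 20.4 Car2 reads in HDT, against 5.78 and 5.07 in vehicle. These ratios separate the groups, and with 2 mice in each an exact test of a single ratio cannot go below a two-sided p of 0.333. Atp4b and Slc4a2 themselves had log2 fold changes of -3.20 and -1.43, so the ratios do not show a rise of Car2.

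Surface mucous, or pit, cells are another known site of Car2. Of 11 pit cell markers tested, 6 were lower and 2 higher, with a median log2 fold change of -0.55 (2 lower and 5 higher on the deposited scale). Without vehicle replicate 1 or without vehicle replicate 2, 3 were lower, and without HDT replicate 2 or vehicle replicate 2, 1 was higher. Dpcr1 and Psca, a gene of a surface glycoprotein, led the list at -0.93 and -0.85. Per read of the gastrokine gene Gkn1, a secreted pit cell protein, there were 0.152 and 0.142 Car2 reads in HDT, against 0.0711 and 0.0689 in vehicle. Gkn1 was 1 of the 6 lower markers, and the 2 higher ones, Muc1 and Vsig1, had log2 fold changes of 0.28 and 0.41, next to 0.25 for Car2. Erythrocytes also hold Car2, and all 5 of their tested markers were lower, at a summed 12.2 to 18.6 CPM in HDT and 58.4 to 66.0 CPM in vehicle. Hbb-bt and Hbb-bs, near-identical globin genes whose reads the counting may split, led at log2 fold changes of -2.48 and -2.26.

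By the smallest root-mean-square difference of mean-centred log2 CPM over the 4 libraries, the genes most like Car2 among 9399 at 10 CPM or more were Cyp2c65, Lxn and Gm16933. The differences were 0.0133, 0.0158 and 0.0166. With only 4 libraries and so many candidates, close matches can be found for most genes. The likeness is therefore a description, and shared regulation was not tested. Cyp2c65, a cytochrome P450 gene, was at 527.8 and 619.2 CPM in HDT, against 492.8 and 470.1 CPM in vehicle.

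Car13, Car1, Car3 and Car2 lie in this order on chromosome 3 of GRCm38, as annotated in GENCODE M21. Car13 spans 14641727 to 14663002, Car1 14766216 to 14808368, Car3 14863512 to 14872523 and Car2 14886273 to 14900770, all protein-coding. The gap between Car3 and Car2 is 13.8 kb, that between Car1 and Car3 55.1 kb and that between Car13 and Car1 103.2 kb. In CPM per kilobase of exons (RPKM, TMM-scaled), which allows genes to be compared, Car2 was at 1040 and 1251 in HDT, against 989 and 936.8 in vehicle. Car3, its nearest neighbour, was at 3.54 and 1.54 RPKM in HDT, against 4.63 and 3.04 in vehicle. Car1, the form known from erythrocytes and colon, had 0 and 4 reads in HDT, against 1 and 1 in vehicle. The neighbours on this chromosome therefore stood at very different levels in the same libraries.

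Car13 encodes a further cytosolic enzyme. It was at 64.8 and 79.8 CPM in HDT, against 77.8 and 80.4 CPM in vehicle. The HDT libraries differed from each other by more than the vehicle libraries did, and the groups overlap. Its log2 fold change was -0.14 (SE 0.0987, 95% interval -0.37 to 0.10, limma adjusted p = 0.319). HDT replicate 1 decides its direction: the value was 0.02 without that library and, without HDT replicate 2, -0.27 and called lower (limma adjusted p = 0.0174). Deposited scaling gave 0.40, called higher.

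Car3 encodes a cytosolic form of low activity that is abundant in fat and skeletal muscle. It was at 10.2 and 4.42 CPM in HDT, against 13.3 and 8.71 CPM in vehicle. Replicate 1 exceeded replicate 2 in both groups, and the groups overlap. Its log2 fold change was -0.68 with a 95% interval of -2.52 to 1.16 (limma adjusted p = 0.439), the widest of the 10. Without HDT replicate 1 it was -1.27 and called lower (limma adjusted p = 0.0346), without HDT replicate 2 it was -0.065 (0.898), without vehicle replicate 1 -0.38 (0.828) and without vehicle replicate 2 -0.98 (0.576).

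Of 12 adipocyte markers, 8 were higher in replicate 1 than in replicate 2 in both groups, as Car3 was, an order that 18.7% of all tested genes had. Replicate numbers do not pair the mice between groups, and markers of the same tissue can vary together. The count is therefore a description and not a test. Lipe, at log2 ratios of 0.11 in HDT and 0.03 in vehicle, and Cidea, at 0.03 in HDT, were near ties among the 8, and Lep was too low to be tested. Plin4, Cidec, Fabp4 and Pnpla2, among the more abundant markers, did not share the order. Adiponectin (Adipoq), chosen after its values were seen, was at 1.69 and 0.456 CPM in HDT, against 1.93 and 0.958 CPM in vehicle. The whole list summed to 185.5 and 192.9 CPM in HDT, against 269.3 and 252.2 CPM in vehicle, a sum led by the lipase gene Pnpla2, which many cells express. Of 11 tested, 3 were lower, among them the lipid droplet gene Plin4, and 1, Cidea, was higher. Without HDT replicate 1 there were 5 lower, and Cidea was not called without either HDT replicate or without vehicle replicate 2. Skeletal muscle markers had 0 of 5 called by limma, edgeR or DESeq2 or at an unadjusted p below 0.05, with Ckm and Tnni2 the most abundant. Without HDT replicate 1, limma called 1 higher. They summed to 10.03 and 13.8 CPM in HDT, against 13.6 and 9.84 CPM in vehicle. The part of fat or muscle in the tissue in the values of Car3 was not tested.

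**Figure D3:**
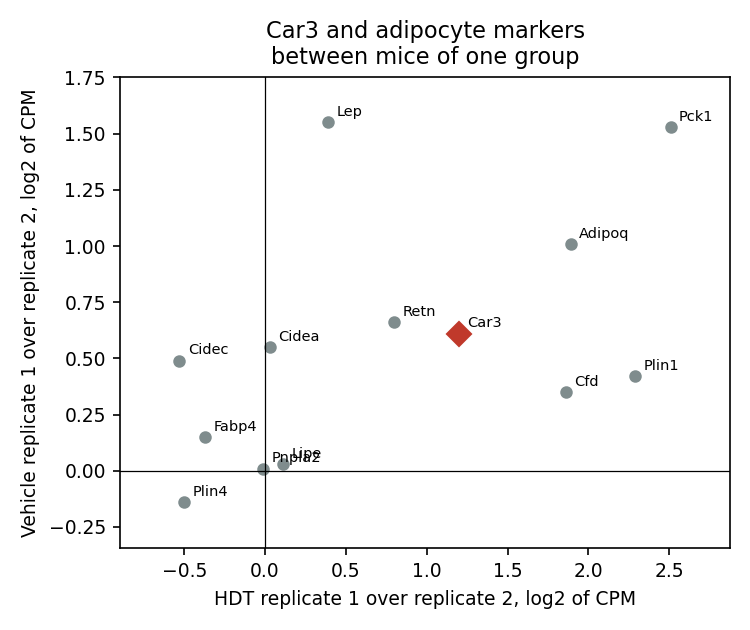
Log2 ratio of CPM in replicate 1 to replicate 2 within the HDT group (x axis) and within the vehicle group (y axis) for Car3 (diamond) and 12 adipocyte markers (circles). Car3, at 1.20 and 0.61, lies among the 8 markers to the upper right of the zero lines, with Adipoq at 1.89 and 1.01. Replicate numbers do not pair the mice between groups.

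Car7, a cytosolic form known mostly from brain, was near the lower end of detection with 34 and 43 reads in HDT, against 33 and 45 in vehicle. That is 0.661 and 0.852 CPM in HDT, against 0.937 and 1.31 CPM in vehicle. The groups did not overlap after scaling, but the reads did, and the log2 fold change of -0.55 did not pass (limma adjusted p = 0.164), with -0.78 without vehicle replicate 1 and -0.31 without vehicle replicate 2, neither called.

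Car5b, the mitochondrial enzyme, fell. It was at 23.7 and 21.8 CPM in HDT, against 30.9 and 32.0 CPM in vehicle. Both HDT libraries lay below both vehicle libraries, and the mice of each group differed little. The log2 fold change was -0.47 (SE 0.0750, 95% interval -0.64 to -0.29, limma adjusted p = 0.00199). Leaving out any 1 of the 4 libraries kept it called, at -0.52 to -0.39 (-0.44 and limma adjusted p = 0.00854 without vehicle replicate 2, the library with the pancreatic signal). Deposited scaling put it at 0.07 with no call (limma adjusted p = 0.493). Car5b spans 163976822 to 164027997 on chromosome X.

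Mitochondrial carbonic anhydrase provides bicarbonate to carboxylating enzymes of the mitochondrion. The list compared here is wider and also holds genes of enzymes that work elsewhere in the cell, such as Cad, and most of its genes fell. By limma 6 of 8 fell and 1 rose (2 without vehicle replicate 2), with a median of -0.59 (on the deposited scale 4 were lower and 3 higher, with a median of -0.06). The methylcrotonyl carboxylase subunit gene Mccc1 fell by 1.91, and its partner Mccc2 by 0.79. The propionyl carboxylase genes Pccb and Pcca had log2 fold changes of -1.64 and -1.60. The pyruvate carboxylase gene Pcx fell by 0.40. Its level was 144.7 and 149.2 CPM in HDT, against 196.4 and 190.8 CPM in vehicle. Of the acetyl carboxylases, Acacb fell by 0.30 (a call lost when vehicle replicate 2 was left out, at a limma adjusted p of 0.0715) and Acaca had a log2 fold change of 0.27 (limma adjusted p = 0.0774). Cad, the cytosolic enzyme that opens pyrimidine synthesis, rose by 0.59. Acacb was called higher on the deposited scale, at 0.23, and Pcx was there at 0.14 with no call.

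Car9 was the most abundant of the membrane enzymes. It is a transmembrane form of the basolateral surface of gastric epithelium, and mice without it are known for overgrowth of the gastric mucosa. Car9 was at 179.1 and 183.9 CPM in HDT, against 226.3 and 216.5 CPM in vehicle. The libraries of each group were close to each other and the groups were apart. The log2 fold change was -0.29 (SE 0.0608, 95% interval -0.43 to -0.15, limma adjusted p = 0.00754). Without vehicle replicate 1 it was not called (-0.26, limma adjusted p = 0.0987), and without vehicle replicate 2 it was -0.32 (limma adjusted p = 0.0443). Deposited scaling gave 0.25, called higher. Car9 spans 43506966 to 43513729 on chromosome 4, and an antisense gene, Gm12454, shares 214 exonic bases with it. That gene had 1489 and 1393 reads in HDT, against 1409 and 1322 in vehicle. Without a stated strand setting, the reads of the shared bases cannot be told apart.

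Most hypoxia-inducible genes fell as well. By limma 16 of 18 were lower and 0 higher, with a median log2 fold change of -0.58. The count of lower genes was 15 by edgeR, 15 by DESeq2 and 13 by limma with the replicate number as a block. By edgeR, by DESeq2 or at an unadjusted p below 0.05, 0 were higher. On the deposited scale 7 were lower and 4 higher, with a median of -0.05. Ankrd37 fell by 1.66 and Bnip3, a mitophagy receptor gene, by 1.41. Bnip3 was at 32.9 and 33.9 CPM in HDT, against 93.9 and 84.1 CPM in vehicle. The collagen hydroxylase gene P4ha1 fell by 0.89, the enolase gene Eno1 by 0.88 and the adrenomedullin gene Adm by 0.87. The prolyl hydroxylase gene Egln3, at -0.89, passed narrowly (limma adjusted p = 0.0481) and was not called by edgeR (adjusted p = 0.0506), nor by limma without HDT replicate 1 or without HDT replicate 2 (adjusted p up to 0.337). The list also held Tpi1, Kdm3a, Ldha and Pdk1, at -0.27, -0.21, -0.15 and -0.14, next to -0.29 for Car9. These were the 4 genes called higher on the deposited scale.

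Car4 encodes a form held on the outer cell surface by a lipid anchor and known from capillary endothelium. It was at 5.31 and 5.13 CPM in HDT, against 6.34 and 5.95 CPM in vehicle. The groups did not overlap, yet the log2 fold change of -0.23 (95% interval -0.51 to 0.05) did not pass (limma adjusted p = 0.168). Of 12 endothelial markers 6 were lower, led by Cldn5 and Kdr at log2 fold changes of -0.91 and -0.64, and the median was -0.07. Cldn5 was not called without HDT replicate 1, without HDT replicate 2 or without vehicle replicate 2 (limma adjusted p up to 0.238). Without HDT replicate 2, 1 was lower and 1 higher, and without vehicle replicate 2, 2 were lower and 2 higher. With deposited scaling 7 were higher. Their summed level was 248.8 to 275.2 CPM in HDT and 266.4 to 311.5 CPM in vehicle.

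Car14, a transmembrane form, was at 7.85 and 9.15 CPM in HDT, against 10.5 and 9.35 CPM in vehicle. The log2 fold change was -0.22 (95% interval -0.50 to 0.06, limma adjusted p = 0.185), with -0.10 without HDT replicate 1 and -0.14 without vehicle replicate 1, neither called. It shares 445 exonic bases with Aph1a, a gene of the gamma-secretase complex on the opposite strand with 3190 and 3300 reads in HDT, against 2224 and 2131 in vehicle. Car12, another transmembrane form, had 60 and 97 reads in HDT, against 46 and 34 in vehicle. It was at 1.17 and 1.92 CPM in HDT, against 1.31 and 0.987 CPM in vehicle, with a log2 fold change of 0.39 (95% interval -0.28 to 1.07, limma adjusted p = 0.329). The scaled values overlap, and the log2 fold change was 0.75 without HDT replicate 1, 0.055 without HDT replicate 2, 0.59 without vehicle replicate 1 and 0.19 without vehicle replicate 2, none of them called. Deposited scaling called both higher, Car12 at 0.92 and Car14 at 0.31.

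Car8 had the largest change of the 10. Its protein binds a receptor for inositol trisphosphate, the calcium release channel encoded by Itpr1, and lowers its sensitivity in the brain. Car8 was at 6.12 and 3.82 CPM in HDT, against 16.7 and 17.8 CPM in vehicle. It had 315 and 193 reads in HDT, against 587 and 612 in vehicle. Both HDT libraries were far below both vehicle libraries, and HDT replicate 2 was the lowest. Its log2 fold change was -1.83 (SE 0.219, 95% interval -2.37 to -1.29, limma adjusted p = 0.00146). Deposited scaling gave -1.30, also called (limma adjusted p = 0.00412). Leaving out any 1 library gave -2.16 to -1.47, each called, and without vehicle replicate 2 the value was -1.78 (limma adjusted p = 0.0164). Car8 spans 8143362 to 8239041 on chromosome 4.

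Of the 3 genes of inositol trisphosphate receptors, 1 fell. Itpr2 was at 12.1 and 12.3 CPM in HDT, against 39.1 and 44.6 CPM in vehicle, a fall of 1.77 on the log2 scale. Itpr1 was at 19.2 and 18.7 CPM in HDT, against 18.6 and 20.2 CPM in vehicle, with a log2 fold change of -0.03 (limma adjusted p = 0.774). Itpr3, the most abundant of them, had a log2 fold change of 0.09 (limma adjusted p = 0.309). Deposited scaling called Itpr1 and Itpr3 higher. There were 0.319 and 0.204 Car8 reads per Itpr1 read in HDT, against 0.895 and 0.879 in vehicle.

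**Figure D4:**
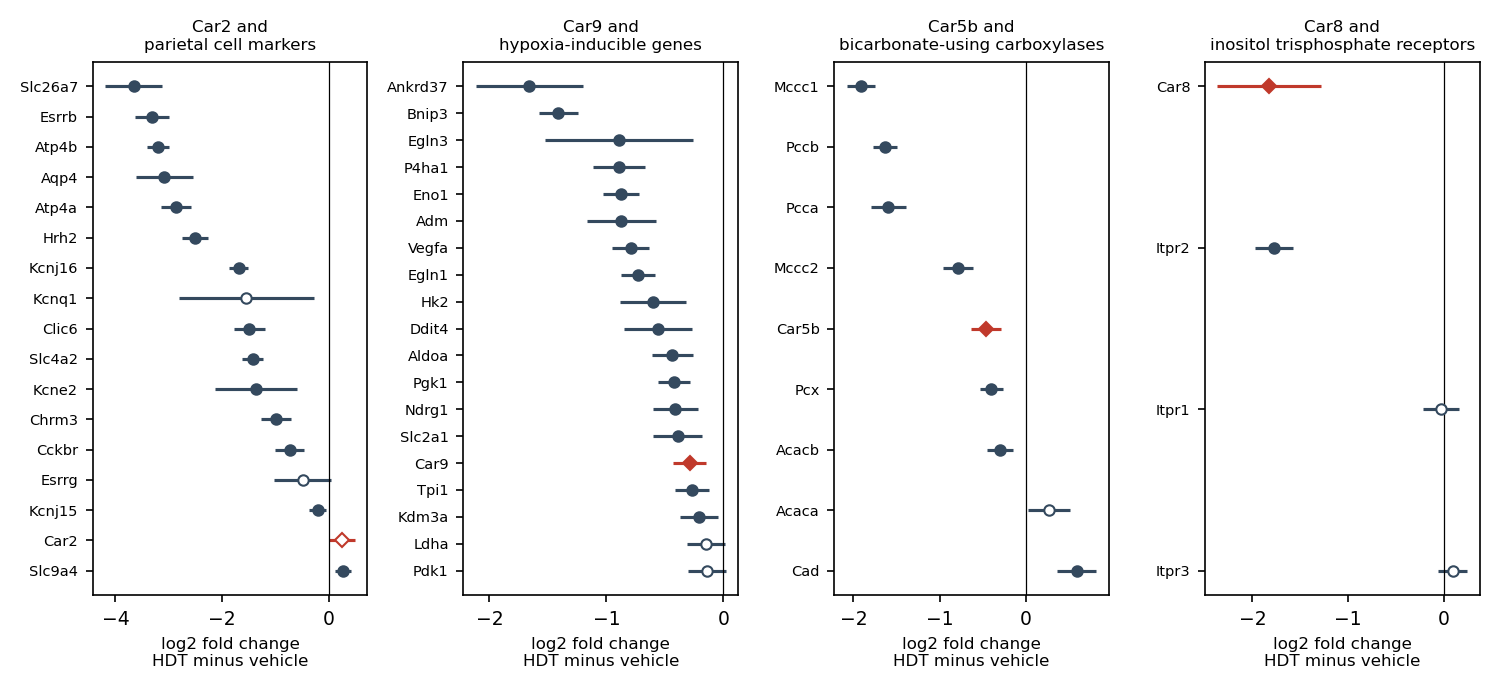
Log2 fold change, HDT minus vehicle, with 95% intervals from limma on the TMM scale for 4 members (red diamonds) and a list of related genes beside each (circles), filled where the adjusted p was below 0.05. Car2, at 0.25, lies to the right of every parietal cell marker shown except Slc9a4, while Car9, Car5b and Car8 lie to the left of zero with most or some genes of their lists.

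Within the family the order of levels was much alike in both groups. Per length, Car2 led, followed by Car9 at 78.8 RPKM in HDT and 96.1 RPKM in vehicle, and then by Car13 at 31.5 RPKM in HDT and 34.4 RPKM in vehicle. These 3 did not overlap with their neighbours in either group. Car5b, Car14, Car4, Car3 and Car8 followed in HDT between 3.58 and 1.29 RPKM. In that order Car5b and Car14 overlapped in HDT, as did Car4 with Car3 and Car3 with Car8. The wide range of Car3 in HDT also overlapped with those of Car14 and Car5b. Car8, at 1.29 RPKM in HDT, ranked below Car14, Car4 and Car3 there, and at 4.47 RPKM in vehicle it ranked above all of these by its mean. In vehicle it did not overlap with Car5b above it or Car14 below it, while the wide range of Car3 overlapped with those of Car8, Car14 and Car4. Car7 and Car12 were last in both groups and overlapped in HDT, at 0.208 and 0.203 RPKM in HDT and 0.308 and 0.151 RPKM in vehicle.

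Shares within the family need no scaling between libraries. Per exon length, Car2 made up 89.4% and 90.7% of the family's reads in HDT, against 86.4% and 86.1% in vehicle. The share of Car9 was 6.69% and 5.78% in HDT, against 8.58% and 8.64% in vehicle. The shares of Car13 were 2.42% and 2.52% in HDT, against 2.95% and 3.22% in vehicle. Car8 made up 0.137% and 0.0719% in HDT, against 0.378% and 0.424% in vehicle. The groups did not overlap for any of these 4, but they did for Car3 and Car12. Car3 made up 0.305% and 0.112% in HDT, against 0.405% and 0.280% in vehicle. No share of all genes stands beside such counts. A share of a closed total shows unequal change and not which member moved. As Car2 takes most of the total, a larger share of Car2 leaves less for the others together. All 16 genes of the family took 0.344% and 0.396% of all reads in HDT, against 0.236% and 0.217% in vehicle. Unlike the shares within the family, this depends on scaling to total reads. On that scale the median log2 fold change of all genes was 0.526, so much of the difference was shared by the typical gene.

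**Figure D5:**
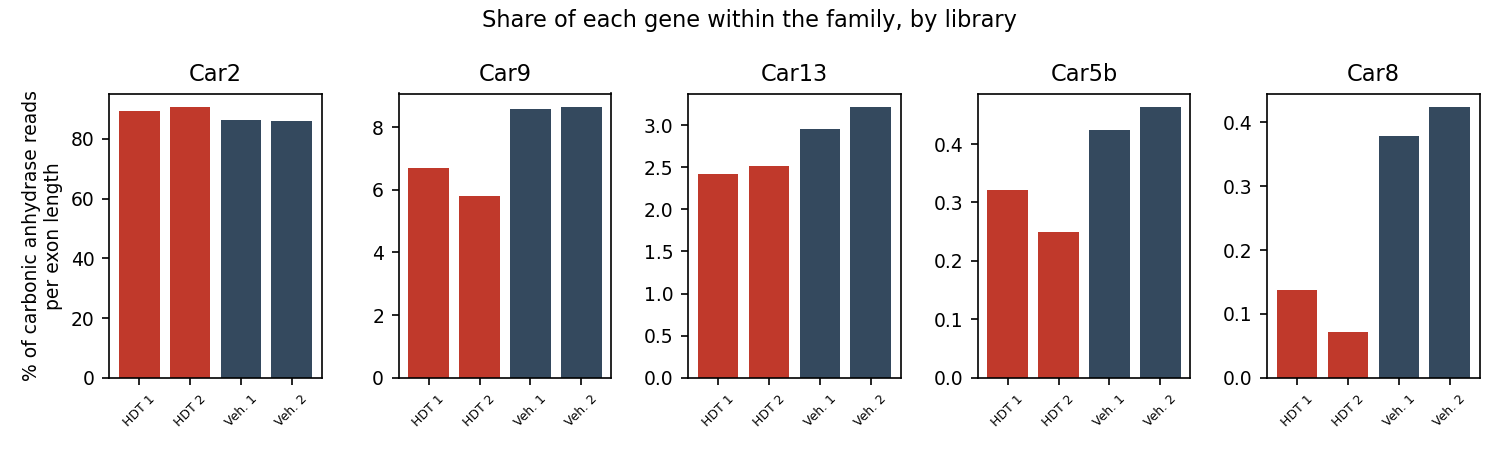
Percent of all carbonic anhydrase reads per exon length taken by each of 5 members in each library, HDT in red and vehicle in dark blue, with a separate axis from 0 for each gene. Car2 is at 89.4% and 90.7% in HDT and at 86.4% and 86.1% in vehicle, and the other 4 members shown take smaller shares in both HDT libraries than in both vehicle libraries.

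Of the 6 family genes outside the 10, 2 had enough reads to be tested, and neither was called. Car11, for a related protein without enzyme activity, was at 1.61 and 1.43 CPM in HDT, against 1.99 and 1.74 CPM in vehicle (limma adjusted p = 0.289). Car15, for a lipid-anchored form, was at 1.71 and 1.43 CPM in HDT, against 1.88 and 2.32 CPM in vehicle (limma adjusted p = 0.160), and shares 1253 exonic bases with Gm20518 on its own strand. Car5a, the other mitochondrial form, had 6 and 1 reads in HDT, against 2 and 0 in vehicle. Car6, the secreted form of saliva, had 7 and 4 reads in HDT, against 1 and 3 in vehicle, and Car10 had 3 and 2 reads in HDT, against 3 and 2 in vehicle. At this depth no difference could be shown for these.

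Transporter genes for bicarbonate, chloride or protons were split in direction. By limma 7 of 21 rose and 6 fell, with a median log2 fold change of -0.04 (12 higher and 6 lower on the deposited scale). The count of higher genes was 4 without vehicle replicate 1 and 3 without vehicle replicate 2. The proton pump genes Atp4a and Atp4b had log2 fold changes of -2.87 and -3.20, and Slc4a2 had -1.43, while Slc9a4 was among the 7 that rose. Slc4a2 was at 171.5 and 148.9 CPM in HDT, against 414.3 and 447.2 CPM in vehicle. The chloride and bicarbonate channel gene Cftr rose by 3.58, at 4.30 and 3.09 CPM in HDT, against 0.398 and 0.203 CPM in vehicle. The sodium bicarbonate cotransporter gene Slc4a5 rose by 1.75 at levels below 1 CPM in every library, and was not called without HDT replicate 1, without HDT replicate 2 or without vehicle replicate 2 (limma adjusted p up to 0.213).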

How the data were processed

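RNA of the corpus of 2 HDT and 2 vehicle mice was sequenced at BGI, per the labels' protocols. The submitters' processing notes name STAR 2.7.1a, featureCounts, Subread 2.0.0, edgeR, GRCm38 and mm10; the annotation, strand setting and normalization used are not stated in any label or header read here. The deposited signal values are gene counts that the authors multiplied by 1 factor per library, 1.1192 and 1.1128 for HDT and 1.1381 and 1.12 for vehicle. Division recovered whole reads for 100% of values above 0 within 0.01. Spreadsheet dates gave 4 rows a repeated name, and these were kept apart. Because the values are scaled, limma 3.58.1 on log2(value + 1) with a trend and robust moderation was the main test. The pseudocount equals 0.89 reads, so folds of low genes are understated. TMM factors were 1.22 and 1.183 for HDT and 0.848 and 0.818 for vehicle. Genes passing filterByExpr were tested two-sided with Benjamini-Hochberg adjustment over all 18285. edgeR 4.0.16 and DESeq2 1.42.0 on recovered reads, other scalings, filters and pseudocounts, a replicate block and leaving out each mouse were alternatives. The functions were tested on simulated data. p-values measure the spread between 2 mice per group, with a median of 5.86 prior degrees of freedom borrowed from other genes. The 2 mice of each group were distinct libraries: chi-square over degrees of freedom was 30.2 in HDT and 16.2 in vehicle. Exon lengths and positions come from GENCODE M21 on GRCm38. Members and gene lists were chosen with earlier results of these data known. Genes outside the family are named by rule: all tested carboxylases and receptors, 6 of the transporter and hypoxia lists and 2 of each cell type list, by size of change among called genes, or by abundance where none was called. The 3 genes nearest to Car2 are named by the measure given there. Slc9a4, Gkn1, Muc1, Vsig1, Tpi1, Kdm3a, Ldha, Pdk1 and the adipocyte genes other than Plin4 and Cidea were chosen after their values were seen.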

Additional observations from a re-analysis of the deposited data

How the results depend on the processing

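Scaling was the choice that mattered most. With the deposited scaling 11483 genes were higher and 998 lower, and 5 members were higher and 1 lower, against 0 and 3 with TMM. By construction that scaling does not remove the median shift of 0.526. Among family genes and genes named by rule, values that changed sign there were those of Car4 (0.30), Car5b (0.066), Car9 (0.25), Car13 (0.40), Car14 (0.31), Car11 (0.24), Car15 (0.11), Pcx (0.14), Acacb (0.23), Itpr1 (0.50), Acta2 (0.27), Ckm (0.30) and Myh11 (0.43). Tpi1 (0.26), Kdm3a (0.32), Ldha (0.39), Pdk1 (0.39), Fabp4 (0.11), Pnpla2 (0.08) and Lipe (0.47), chosen after their values were seen, changed sign there too. With upper-quartile scaling Itpr1 was at 0.001. DESeq2 on recovered reads called 1 member higher, Car2. With the DESeq2 size factors, upper-quartile scaling, other filters and pseudocounts or edgeR, the members' counts stayed at 0 higher and 3 lower.

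Leaving out each mouse in turn gave 0 to 1 members higher and 2 to 4 lower, with 2506 to 2911 genes higher and 2646 to 3129 lower in all. The log2 fold change was then -0.27 to 0.02 for Car13, -0.57 to 0.10 for Ckm, -0.092 to 0.025 for Itpr1 and -0.33 to 0.14 for Myh11. The cause of these changes was not tested.

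Replicate numbers only name the mice and do not pair them. Between groups, replicate 1 minus replicate 2 correlated at -0.316 over 15117 genes, so same-numbered mice tended to deviate in opposite directions. With the replicate block 0 members were higher and 4 lower, Car3 (adjusted p = 0.0335) being added, among 2357 genes higher and 2625 lower in all. With crossed numbers, added after seeing the data, 1 was higher and 3 lower, among 4197 higher and 4325 lower. With 2 mice per group, genes with few reads (Car7, Car12 and the untested family genes) allow no firm statement.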
